A study of Mus musculus with 4 samples.

Results

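The tumour necrosis factor (TNF) superfamily was examined in lineage-negative, c-Kit-positive (LK) cells from NOD mice, which develop autoimmune diabetes. The cells had been held with a drug combination or with vehicle. The set was chosen by name as 41 genes, which are 16 ligands, 20 receptors and 5 TRAF adaptors. For 37 of them (14 ligands, 19 receptors and 4 adaptors) the array has a feature, or probe set, that its annotation gives to that gene symbol alone, out of 30145 such genes. Where a gene had more than 1 such feature, the feature brightest on average across the arrays was used. Tnfsf12, Tnfsf13 and Cd27 were named only on features that carry several symbols, and Traf3 on none, so these 4 are not analysed here. The set was defined by gene family and not by the measured values, but it was proposed with results of these arrays known.

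The combination group was 2 samples of LK cells, kept for 4 h at 37 °C in StemSpan medium with dimethyl prostaglandin E2 (dmPGE2, 10 µM) and dexamethasone (10 µM). The vehicle group was 2 samples of the same cell type with DMSO for the same time. LK cells include the stem and progenitor cells of the blood. dmPGE2 is a stabilised form of prostaglandin E2, whose receptors can raise cAMP, and dexamethasone is a synthetic glucocorticoid. All samples came from the 1 mouse strain. The sources used here do not give the age or sex of the mice or say whether cells were pooled, and no sample carried either drug alone. The design text calls the duplicates biological, but nothing says that they came from separate mice or cultures, so p-values measure only the spread between these samples, which may be technical. The comparison asks which transcripts of this family differ after exposure to the drug pair.

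TNF superfamily ligands are mostly membrane-anchored trimers, some of which are released by proteases, and they cluster their receptors on the target cell. Receptors with a cytoplasmic death domain can recruit FADD or TRADD and from there caspases or NF-kB, while the other receptors bind TRAF adaptors directly and signal mainly to NF-kB and MAP kinases. In blood formation, TNF itself acts on hematopoietic stem and progenitor cells through its receptors Tnfrsf1a and Tnfrsf1b. Glucocorticoids are known to restrain Tnf transcription in myeloid cells, and cAMP-raising prostaglandins to lower TNF output by macrophages.

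Signals were summarised by RMA and are given in log2, where 1 unit is a doubling of signal, and differences are combination minus vehicle. A gene is called at background where all 4 arrays lay at or under the brightest of the 23 background probe sets on the same array, which reached between 5.24 and 5.55. RMA compresses low signals, so differences of dim genes may be understated. Where 1 group was at or under that background on both arrays and the other above it on both, the fold is a lower bound. The bound is taken against the higher of the gene's own signal and the brightest background probe set on each array of the dimmer group. It concerns the measured group means and makes no allowance for the spread between arrays. Array medians lay between 4.36 and 4.44, and 53.1% of the 30145 genes were at background by this rule. The test was limma's moderated test across 65956 features. With Benjamini-Hochberg adjustment 2 features passed 0.05 in that test, and none of them was a member of this family. At an unadjusted limma p under 0.05, 802 genes were higher and 798 lower in the combination.

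Of the progenitor markers, 5 of 7 were measured (Kit, Cd34, Flt3, Gata2 and Myb) and none was at background. Kit read 10.51 and 9.62 in the combination, against 10.18 and 10.32 with vehicle, which overlapped. Myb was the 1 of these 5 with an unadjusted limma p under 0.05, at 11.22 and 11.15 in the combination, against 11.53 and 11.85 with vehicle, a difference of -0.51. All 6 T cell markers, including Cd3e, were at background, as were 4 of 5 NK cell markers (Nkg7 was not), 2 of 4 measured B cell markers and 2 of 4 dendritic cell markers. Of the 5 neutrophil markers, Camp, S100a8 and S100a9 set the numbered arrays apart within both groups. Camp, a granule peptide gene, read 12.80 and 8.41 in the combination and 13.51 and 7.63 with vehicle, the first value of each pair being from the array numbered 1. Mmp8, a neutrophil collagenase gene, differed between the groups, with 8.13 and 7.37 in the combination, against 6.29 and 4.34 with vehicle (a difference of 2.43, with an unadjusted limma p of 0.021). Ly6g was at background. The mean over the 5 neutrophil markers was 11.06 and 9.48 in the combination, against 10.83 and 8.67 with vehicle. Markers of other cells split by number too. Cd34 read 9.38 and 10.38 in the combination and 9.50 and 10.48 with vehicle, and Flt3 6.01 and 6.71 against 5.92 and 7.25. Both were higher on the arrays numbered 2, as were Pf4, Itga2b and Gp9 (megakaryocyte), Cpa3 and Fcer1a (mast cell) and Cd79a (B cell). The erythroid markers Epor and Klf1 were higher on both arrays numbered 1. Of the 5 macrophage markers, Csf1r read 8.39 and 8.67 in the combination against 9.12 and 9.77 with vehicle, and Adgre1 6.72 and 6.62 against 7.14 and 7.32. Both had an unadjusted limma p under 0.05 on the lower side, while Mertk had one on the higher side. The mean over the 5 macrophage markers was 6.08 and 6.06 in the combination and 6.07 and 6.33 with vehicle. All 4 mast cell and basophil markers lay lower in the combination, by differences from -0.41 to -0.22. Of these, Ms4a2 had an unadjusted limma p under 0.05, with 8.11 and 7.94 in the combination, against 8.50 and 8.35 with vehicle. The part that neutrophil, macrophage, mast cell, progenitor, erythroid or megakaryocyte content plays in any result given here was not tested.

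Across the family the picture was one of few and mostly small differences. Tnf, the founding ligand, and the death domain receptor gene Tnfrsf21 were lower in the combination, and the costimulatory receptor gene Tnfrsf9 (4-1BB) and the adaptor gene Traf1 were higher, all 4 with both combination arrays beyond both vehicle arrays. Tnfrsf10b and Ltb were lower by smaller amounts. These 6 were the members with an unadjusted limma p under 0.05, and 0 of 37 passed limma's adjusted threshold. The 2 higher members are 5.41% of the 37, against a background of 2.66% of all genes, and the 4 lower ones 10.8%, against 2.65%. The share of all genes that passed the adjusted threshold was 0.00332% on the higher side and 0% on the lower. The median difference of the members was 0.01, the same as the median of 0.01 over all genes, and the mean was higher in the combination for 19 members (51.4%, against 53.2% of all genes) and lower for 18 (48.6%, against 46.8%). Of the members 15 (40.5%) were at background.

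**Figure D1:**
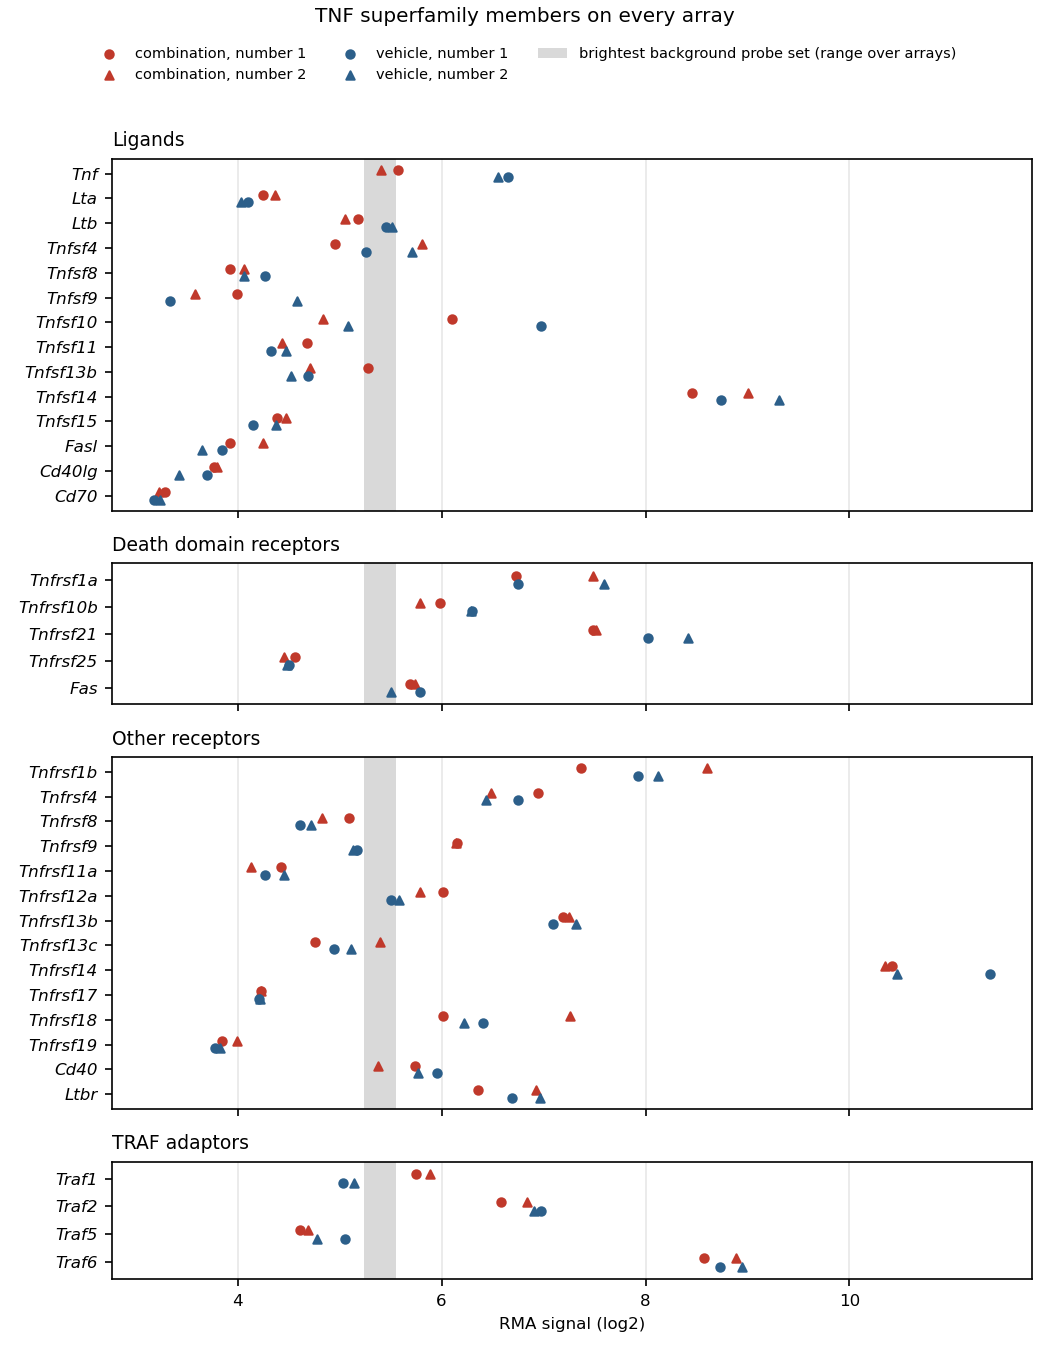
RMA signal (log2, horizontal axis) of the 37 measured members, by role, with 1 point for each array (circles are arrays numbered 1 and triangles arrays numbered 2, red combination and blue vehicle). The grey band spans the brightest background probe sets of the 4 arrays, 5.24 to 5.55, and most ligands lie left of it while most receptors lie right of it.

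Among the ligands, Tnf encodes the cytokine that gives the family its name. Tnf read 5.57 and 5.41 in the combination arrays, against 6.65 and 6.55 in the vehicle arrays. The groups did not overlap, and the gap between them was several times the spread within each. The difference was -1.11 (SE 0.14), 2.16-fold lower in the combination, with an unadjusted limma p of 0.00075 and a limma adjusted p of 0.34. It was the only member with a difference of at least 1 in size, which 0.425% of all genes had on the lower side and 0.886% on the higher. With an unadjusted limma p under 0.05 as well, these shares of all genes were 0.342% and 0.72%. Both combination values lay just above the brightest background probe set of their arrays (5.35 and 5.24). The lower level is thus close to the background limit used here, though the background probe sets of those arrays averaged 3.07 and 3.16. In whole-population RNA such as this, fewer cells that make a transcript and less of it per cell cannot be told apart.

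Ltb encodes lymphotoxin beta, the membrane subunit that anchors lymphotoxin alpha at the cell surface. Ltb read 5.18 and 5.05 in the combination, against 5.45 and 5.51 with vehicle, without overlap. The difference was -0.37 (SE 0.13), with an unadjusted limma p of 0.043 and a limma adjusted p of 0.89, and both combination arrays and the second vehicle array were under their brightest background probe sets. Only 1 of 2 vehicle arrays was above background, so no lower bound on the fold is given for Ltb. Lta, the gene of lymphotoxin alpha, was at background, at 4.24 and 4.37 in the combination and 4.10 and 4.03 with vehicle. Tnf stands between Ltb and Lta in the gene order of chromosome 17 in the RefSeq table of assembly GRCm38.p6. The 3 neighbours thus had differences of -0.37, -1.11 and 0.24, the last for a gene at background by the rule used here.

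The sequences upstream of Tnf and Ltb are shown because these neighbours were the 2 lower ligands with an unadjusted limma p under 0.05. Each is the 250 bases before the RefSeq start site, 5′ to 3′ on the gene's own strand, from the GRCm38.p6 table. Capitals mark matches to a loose NF-kB motif (GGG and CC with any 5 bases between them), searched on both strands. Overlapping matches run together. Tnf is at chr17:35202008-35202257, minus strand, and Ltb at chr17:35194257-35194506, plus strand.
Tnf: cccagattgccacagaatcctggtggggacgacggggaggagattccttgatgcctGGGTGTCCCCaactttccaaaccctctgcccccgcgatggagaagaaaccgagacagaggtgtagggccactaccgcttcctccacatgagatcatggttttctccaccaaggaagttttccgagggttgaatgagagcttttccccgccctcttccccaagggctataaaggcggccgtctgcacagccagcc
Ltb: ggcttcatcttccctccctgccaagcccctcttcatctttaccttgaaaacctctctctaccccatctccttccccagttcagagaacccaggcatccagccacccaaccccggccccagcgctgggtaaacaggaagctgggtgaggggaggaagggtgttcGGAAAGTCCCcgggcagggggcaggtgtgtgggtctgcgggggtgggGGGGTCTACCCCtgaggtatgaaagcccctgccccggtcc

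The Tnf window held 1 stretch that matched on both strands, from 194 to 185 bases before the start. The Ltb window held 1 match from 87 to 78 bases before the start and a run of overlapping matches from 40 to 29. Such matches were common. Of all 32851 windows of this length in the table, 45.8% held at least 1, and of the 38 windows of the 34 family genes found there, 25 did (65.8%). The core of the cAMP response element, TGACG on either strand, was in 17.8% of all windows and in 6 of the 38 family windows, and in neither of these sequences. The glucocorticoid response element pattern (G, any base, ACA, any 3 bases, TGT, any base, C) was in 0.387% of all windows and in 0 of the 38. A match is a run of letters and not a measured site, and the lack of one concerns these windows only.

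None of the other ligands had an unadjusted limma p under 0.05. Of the 14 measured, 9 were at background: Lta, Tnfsf8 (CD30 ligand), Tnfsf9 (4-1BB ligand), Tnfsf11 (RANK ligand), Tnfsf13b (BAFF, a B cell survival factor), Tnfsf15, Fasl, Cd40lg and Cd70. Their arrays read between 3.18 and 5.27 and their differences ranged from -0.17 to 0.39, with unadjusted limma p of at least 0.12. Several of these are known chiefly from activated T cells, whose markers were at background too.

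Tnfsf14 (LIGHT) averaged 8.73 ± 0.38 in the combination and 9.03 ± 0.40 with vehicle (SD, n = 2 each), and the groups overlapped, with both arrays numbered 2 above both numbered 1. Tnfsf10, which encodes the death ligand TRAIL, read 6.10 and 4.83 in the combination and 6.97 and 5.09 with vehicle, a difference of -0.56, with both arrays numbered 2 under their brightest background probe sets. The arrays of each group lay farther apart than the group means. Its arrays numbered 1, the higher ones in both groups, were also those with high Camp. Tnfsf4 (OX40 ligand) read 4.95 and 5.81 in the combination and 5.26 and 5.71 with vehicle, higher on both arrays numbered 2 and under the brightest background probe set on both numbered 1.

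Among the 5 death domain receptors, Tnfrsf21 (death receptor 6) had the largest difference. Tnfrsf21 read 7.49 and 7.52 in the combination, against 8.02 and 8.42 with vehicle. Every combination array was lower than every vehicle array, and the vehicle arrays differed more from each other than the combination arrays did. The difference was -0.72 (SE 0.18), 1.64-fold lower, with an unadjusted limma p of 0.012 and a limma adjusted p of 0.76. All 4 values were well clear of the background probe sets. Without the second vehicle array the difference was -0.52 and the unadjusted limma p 0.051.

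Tnfrsf10b is the mouse receptor for TRAIL that can start apoptosis. Tnfrsf10b read 5.99 and 5.79 in the combination, against 6.29 and 6.29 with vehicle, and the groups did not overlap. The difference was -0.40 (SE 0.14), with an unadjusted limma p of 0.038 and a limma adjusted p of 0.87, and it had an unadjusted limma p under 0.05 in 1 of 4 fits that left out 1 array.

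Tnfrsf1a, the widely expressed TNF receptor, read 6.73 and 7.49 in the combination and 6.75 and 7.59 with vehicle. Its values followed the array number, with a difference of -0.06 between the groups, far inside the spread. Tnfrsf25, the receptor of Tnfsf15, was at background.

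Fas, the receptor of Fas ligand, read 5.69 and 5.73 in the combination and 5.79 and 5.50 with vehicle on the feature with the highest mean, a difference of 0.07. On that feature the second vehicle array was under its brightest background probe set. That feature's identifier begins with TC17, whereas RefSeq places Fas on chromosome 19, and the chromosome in the identifier matched RefSeq for 99.6% of 22622 features with a matched gene. The other Fas feature, whose identifier carries chromosome 19, read 5.29 and 5.53 in the combination, against 5.09 and 4.88 with vehicle. On this other feature the first combination array and both vehicle arrays were under their brightest background probe sets. The combination arrays lay above the vehicle arrays there, by 0.42 (SE 0.16), with an unadjusted limma p of 0.054 and a limma adjusted p of 0.89. The 2 features thus differed by 0.07 and 0.42, neither with an unadjusted limma p under 0.05. The first was fixed by the rule of the highest mean, and the second was added after the values were seen.

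**Figure D2:**
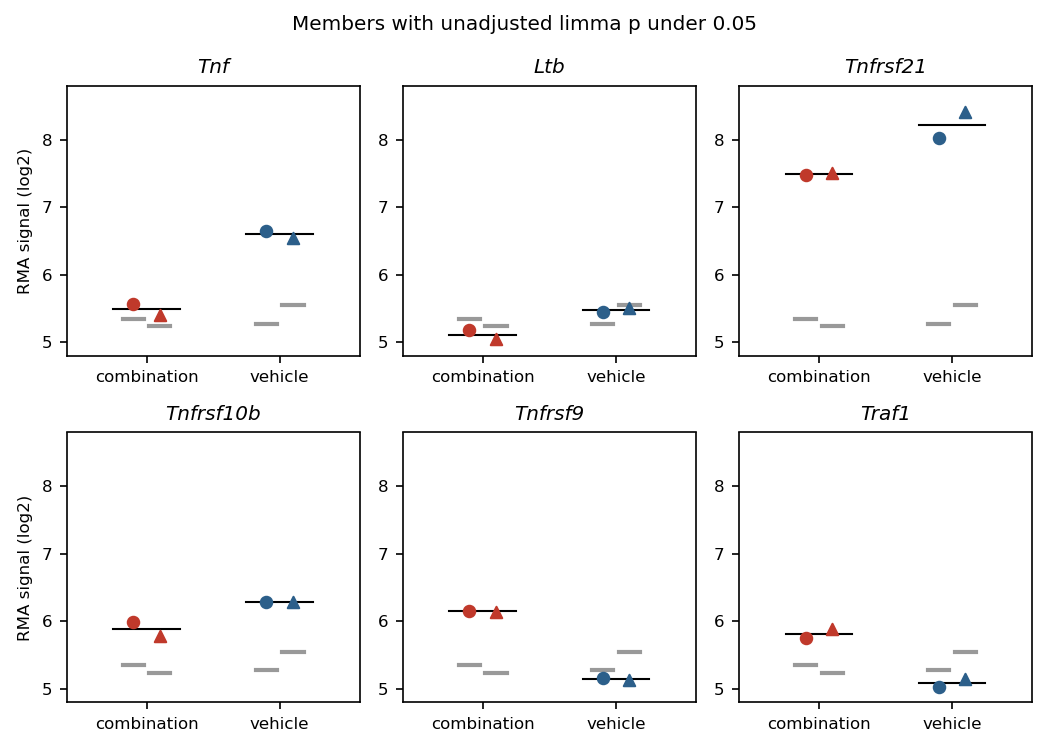
RMA signal (log2, vertical axis, which does not start at 0) of the 6 members with an unadjusted limma p under 0.05, by group, combination left and vehicle right. Circles are arrays numbered 1, triangles arrays numbered 2, black lines group means and grey dashes the brightest background probe set of each array, and in every panel the 2 groups are separate.

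Of the 14 other measured receptors, Tnfrsf9 stood out. It encodes 4-1BB, a costimulatory receptor that binds TRAF1 and TRAF2 and is known best from activated T and NK cells, though myeloid cells and progenitors also carry it. Tnfrsf9 read 6.15 and 6.14 in the combination, against 5.17 and 5.13 with vehicle. The duplicates agreed within 0.04 in each group and the groups lay far apart by comparison. The difference was 0.999 (SE 0.12), with an unadjusted limma p of 0.00073 and a limma adjusted p of 0.34, and both vehicle arrays were under their brightest background probe sets. Tnfrsf9 was therefore at least 1.67-fold higher. The markers of T cells were at background on every array, as were those of NK cells apart from Nkg7. The ligand gene Tnfsf9 was at background too, with 3.99 and 3.58 in the combination and 3.34 and 4.58 with vehicle.

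Traf1 was the other higher member with an unadjusted limma p under 0.05. It is an adaptor gene that NF-kB induces, and its product binds Tnfrsf9 and Tnfrsf1b complexes. Traf1 read 5.75 and 5.88 in the combination, against 5.04 and 5.14 with vehicle, and the vehicle arrays were again under their brightest background probe sets. The difference was 0.73 (SE 0.14), at least 1.32-fold higher, with an unadjusted limma p of 0.0040 and a limma adjusted p of 0.55. The other measured adaptors differed in the other direction or hardly at all. Traf2, which links TNF receptors to NF-kB and JNK, read 6.59 and 6.84 in the combination, against 6.97 and 6.91 with vehicle. Traf5 was at background. Traf6, the adaptor shared with Toll-like and interleukin-1 receptors, read 8.57 and 8.89 in the combination and 8.73 and 8.95 with vehicle, which overlapped. The differences of Traf2, Traf5 and Traf6 were -0.23, -0.26 and -0.11, and none had an unadjusted limma p under 0.05.

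Upstream sequences of Tnfrsf9 and Traf1 are shown because these were the 2 higher members with an unadjusted limma p under 0.05. RefSeq gives Tnfrsf9 a pair of start sites, and the downstream one, at chr4:150927749-150927998, plus strand, is printed. Traf1 is at chr2:34961773-34962022, minus strand, and both are 250 bases before the start in GRCm38.p6, with capitals as for Tnf.
Tnfrsf9: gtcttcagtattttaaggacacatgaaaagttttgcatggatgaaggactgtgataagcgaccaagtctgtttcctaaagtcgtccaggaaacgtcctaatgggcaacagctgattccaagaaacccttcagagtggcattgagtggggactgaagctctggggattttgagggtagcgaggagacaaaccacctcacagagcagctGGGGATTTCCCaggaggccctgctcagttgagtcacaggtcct
Traf1: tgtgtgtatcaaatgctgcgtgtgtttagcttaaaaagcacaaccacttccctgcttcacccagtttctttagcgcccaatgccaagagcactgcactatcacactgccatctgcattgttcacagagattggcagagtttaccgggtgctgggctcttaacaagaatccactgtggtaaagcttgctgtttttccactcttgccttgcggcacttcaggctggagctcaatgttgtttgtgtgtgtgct

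The Tnfrsf9 window held overlapping NF-kB motif matches from 43 to 33 bases before the start, and the window of its other start site held none. The Traf1 window held none of the 3 motifs, nor did the Tnfrsf21 window. Among the members with an unadjusted limma p under 0.05, lower and higher ones thus both included windows with and without the NF-kB letters.

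The remaining receptors above background on at least 1 array formed 3 kinds. The first kept the groups apart. Tnfrsf12a (the TWEAK receptor) read 6.01 and 5.79 in the combination, against 5.50 and 5.59 with vehicle, a difference of 0.35 with an unadjusted limma p of 0.066. Cd40, a receptor of antigen-presenting cells, read 5.74 and 5.37 in the combination, against 5.96 and 5.77 with vehicle. Tnfrsf14 (HVEM), the receptor of Tnfsf14, read 10.42 and 10.35 in the combination, against 11.38 and 10.46 with vehicle, a gap of -0.54. Without the second vehicle array the gap was -0.998, with an unadjusted limma p of 0.0072, and without the first it was -0.08. On all arrays, neither Cd40 nor Tnfrsf14 had an unadjusted limma p under 0.05.

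The second kind spread widely within the combination group. Tnfrsf18 (GITR), known as a glucocorticoid-induced gene of T cells, read 6.01 and 7.26 in the combination and 6.40 and 6.22 with vehicle. Tnfrsf1b, the TNF receptor of immune cells, read 7.37 and 8.60 in the combination and 7.92 and 8.12 with vehicle. In both genes 1 combination array lay below and the other above the vehicle arrays, so their differences of 0.33 and -0.04 describe neither array. Without the first combination array the differences were 0.95 for Tnfrsf18 and 0.58 for Tnfrsf1b, with unadjusted limma p of 0.0088 and 0.043. Such a fit takes a gene's spread from the vehicle arrays and the prior alone and assumes that the lone combination array varies like them. Without the second combination array they were -0.30 and -0.65, with unadjusted limma p of 0.20 and 0.030, so the sign in both genes rests on which combination array is read.

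The third kind overlapped and hardly differed. Tnfrsf4 (OX40), which stands next to Tnfrsf18 on chromosome 4, read 6.95 and 6.49 in the combination and 6.75 and 6.44 with vehicle. Tnfrsf13b (TACI), a receptor of BAFF, averaged 7.22 ± 0.04 in the combination and 7.21 ± 0.16 with vehicle (SD, n = 2 each). Tnfrsf13c, the BAFF receptor, averaged 5.08 ± 0.45 in the combination and 5.02 ± 0.12 with vehicle (SD, n = 2 each), and was above background on 1 of 4 arrays. Ltbr, which receives lymphotoxin and LIGHT, read 6.36 and 6.93 in the combination and 6.69 and 6.97 with vehicle. Tnfrsf8, Tnfrsf11a (RANK), Tnfrsf17 and Tnfrsf19 were at background, with arrays between 3.78 and 5.09 and differences from -0.08 to 0.29.

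**Figure D3:**
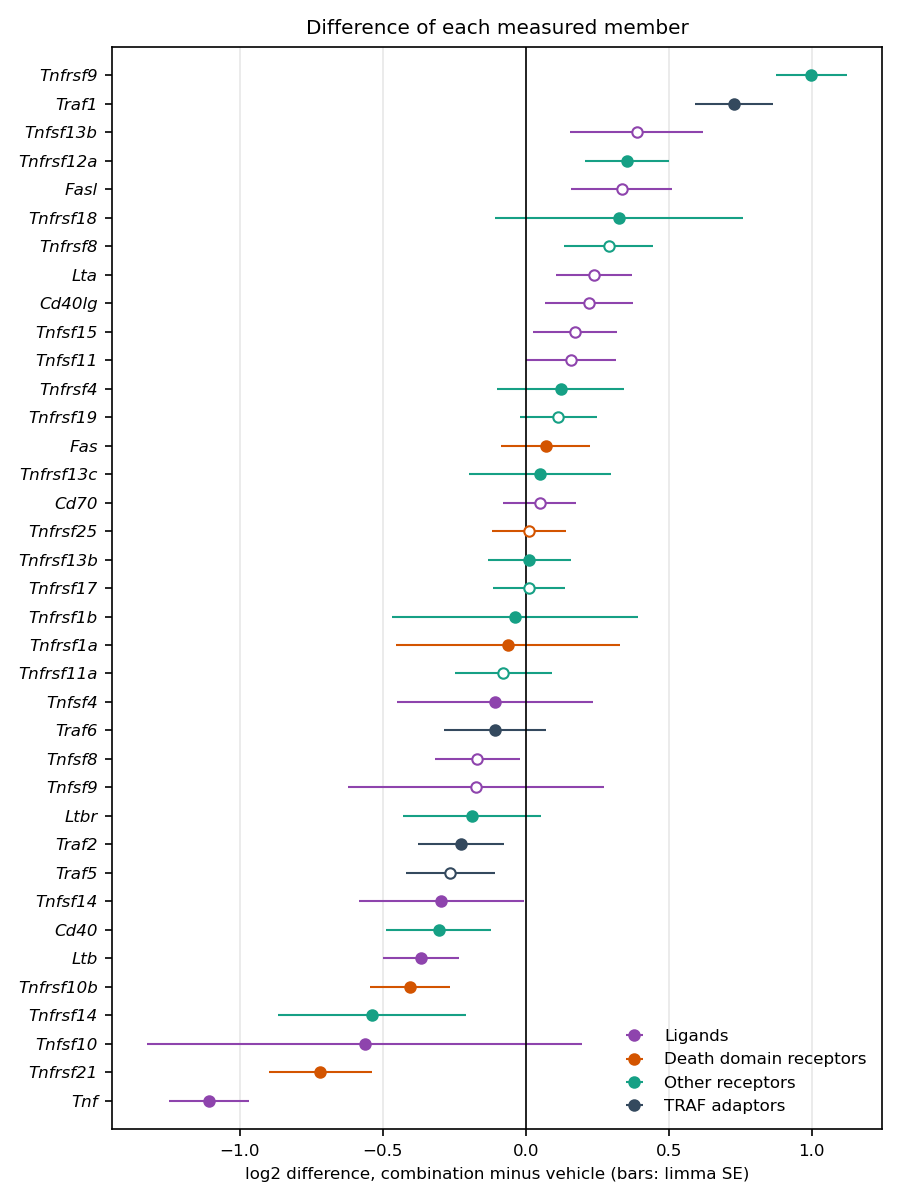
Log2 difference, combination minus vehicle (horizontal axis), of the 37 measured members in order of size, coloured by role, with bars for limma's SE (2 arrays per group). Hollow points are the 15 members at background, and Tnf at -1.11 and Tnfrsf9 at 0.999 stand at the ends of the range.

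By role, 5 of 19 receptors and 9 of 14 ligands were at background. Counted as known ligand and receptor pairs with both genes measured, 18 pairs could be formed. In 7 of them both genes were above background on at least 1 array, in 7 only the receptor was, and in 4 neither was, while no pair had such a ligand and a receptor at background on all 4. The 7 pairs were Tnf with Tnfrsf1a and Tnfrsf1b, Ltb and Tnfsf14 with Ltbr, Tnfsf14 with Tnfrsf14, Tnfsf10 with Tnfrsf10b and Tnfsf4 with Tnfrsf4. Of their ligands, Tnf and Tnfsf14 were above background on all 4 arrays, Tnfsf10 and Tnfsf4 on 2 each and Ltb on 1. In the Tnf pairs the ligand gene was lower by 1.11 while its receptor genes differed by -0.06 and -0.04, and in the Tnfsf9 pair the receptor gene was higher by 0.999 and the ligand gene was at background.

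Groups without overlap were common here as elsewhere on the arrays. Both combination arrays were above both vehicle arrays for 11 of 37 members (29.7%), against 19.7% of all genes, and below them for 8 (21.6%), against 15.4%. Of the 11, 8 were members at background. Among the 22 members not at background, both combination arrays were above both vehicle arrays for 3 (13.6%). The same held for 1944 of all 14141 genes not at background (13.7%). Both combination arrays were below both vehicle arrays for 7 of these 22 members (31.8%), against 3118 of these 14141 genes. Some members were separated by array number: both arrays numbered 1 were above both numbered 2 for 3 members, against 19.3% of all genes, and below them for 8 (21.6%), against 19.8%. Tnfrsf1a, Tnfrsf1b, Tnfsf14, Tnfsf4, Ltbr, Tnfrsf13b, Tnfrsf13c and Traf6 were the 8. The 6 members with an unadjusted limma p under 0.05 were in neither of these 2 sets. That follows from their combination and vehicle arrays not overlapping, and it says nothing about an effect of array number on them.

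The rest of the pathway was read from lists of 61 further genes, of which 56 were measured. At an unadjusted limma p under 0.05, 2 were higher and 1 lower, 3.57% and 1.79%, against 2.66% and 2.65% of all genes, and 0 passed the adjusted threshold. The median of these 56 differences was -0.02. In the receptor complex and canonical NF-kB list, 1 of 21 was higher and 0 lower. This was Nfkbia, the inhibitor of NF-kB that both NF-kB and glucocorticoids induce, at 10.14 and 10.54 in the combination, against 8.36 and 8.50 with vehicle. Tnfaip3 (A20), another NF-kB target and inhibitor, read 5.36 and 5.93 in the combination and 5.65 and 5.22 with vehicle, which overlapped. None of 5 noncanonical NF-kB genes, 7 death arm genes (Casp8, Fadd and Cflar among them) and 5 shedding genes had an unadjusted limma p under 0.05. Adam17, the protease that sheds TNF, read 8.54 and 8.90 in the combination, against 8.99 and 8.91 with vehicle, a difference of -0.23. The rest of the shedding list went both ways. Adam10 differed by -0.40 and Rhbdf1, at background, by -0.02, while Rhbdf2 differed by 0.24 and Furin by 0.86.

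Among 8 genes of Tnf mRNA control, Zfp36l2 was the only one with an unadjusted limma p under 0.05. It belongs to a family whose members bind AU-rich mRNA elements and speed decay. Zfp36l2 read 8.82 and 8.91 in the combination, against 7.63 and 7.75 with vehicle, a difference of 1.17 (SE 0.13). Zfp36 (tristetraprolin), which destabilises Tnf mRNA in mice, read 7.05 and 7.78 in the combination, against 6.64 and 6.85 with vehicle, a difference of 0.67 with an unadjusted limma p of 0.067. Zfp36l1 differed by 0.14. Rc3h1, Rc3h2, Elavl1, Tia1 and Tial1 were lower in the combination, by differences from -0.33 to -0.10. The median difference of the 8 genes was -0.14, and their part in the Tnf result was not tested. Among 12 further family genes, 0 were higher and 1 lower, the adaptor gene Traf4, which averaged 5.70 ± 0.07 in the combination and 6.09 ± 0.12 with vehicle (SD, n = 2 each). Of the mouse TRAIL decoy receptor genes, Tnfrsf22 differed by -0.02 and Tnfrsf23 by 0.40, and neither had an unadjusted limma p under 0.05. All 7 genes of the glucocorticoid and cAMP response list were higher, Per1 by 2.07 and Tsc22d3 by 1.22, but that list was known to respond on these arrays and is no independent evidence.

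**Figure D4:**
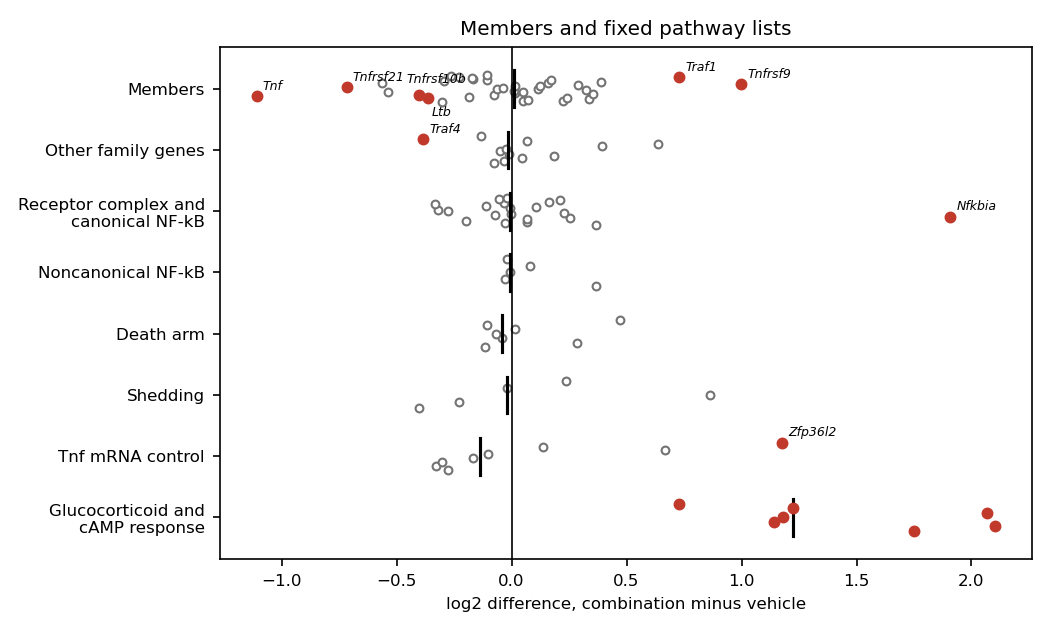
Log2 difference, combination minus vehicle (horizontal axis), of the members and of each pathway list, 1 point per gene, with black lines at the list medians and vertical positions within a row without meaning. Red points have an unadjusted limma p under 0.05, and beside the response genes only Nfkbia and Zfp36l2 of the pathway genes lie above 1.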

How the data were processed

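RNA was hybridised to 4 Affymetrix arrays, 2 per group, from 10 ng of total RNA each. The authors deposited log2 values; RMA and the Transcriptome Analysis Console are named in the submitters' processing notes. The sources used here give neither versions nor a genome build. RMA gives all arrays nearly the same distribution, which hides any change in total RNA. Of 72688 rows, 6732 control rows were left out. A symbol that the annotation lists more than once counted as 1 symbol.

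limma 3.58.1 in R 4.3.3 was fitted to 65956 features with a term for group alone, two-sided, with Benjamini-Hochberg adjustment over them. Residual degrees of freedom were 2, and the prior added 2.59. An exact permutation test of 2 against 2 arrays cannot go below p = 0.333 and was not used. The number of arrays limits the precision. On simulated data for this comparison (65956 features, 5 simulations), the fit called 0% of features changed by 1 on the log2 scale, 44.9% by 2 and 81.8% by 3. A missed threshold thus does not show that a member was unchanged.

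Members with an unadjusted p under 0.05 or a difference of at least 1 in size, Tnf and Traf1 were given with full values, beside their family partners, and so were pathway genes with an unadjusted p under 0.05. Tnfaip3, Adam17, Zfp36, Tnfrsf22 and Tnfrsf23 fall outside this rule and were chosen after their values were seen. The other genes of Tnf mRNA control are given beside Zfp36, and the other shedding genes beside Adam17, so that each whole list is shown. Members and lists were chosen with earlier results of these data known. Alternatives were a replicate block, other priors, filters and scalings, control rows kept, probe set means, each array left out and, added after seeing the data, another Fas feature. Sequences are RefSeq's (GRCm38.p6).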

Additional observations from a re-analysis of the deposited data

How the results depend on the processing

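With limma, 0 members passed the adjusted threshold under any alternative, and 6 had an unadjusted p under 0.05 on all arrays. Over all features, 2 passed the adjusted threshold, against 19 with the replicate number as a block (no member among them), 0 with an intensity trend, 0 with either filter on dim features, 0 after a second quantile normalization, 0 with control rows kept and between 0 and 0 without 1 array. The samples share only a number, and the deviations of same-numbered arrays correlated at 0.33 over all features. The count of higher members stayed at 2 on all arrays and ranged from 2 to 4 without 1 array, 4 being without combination replicate 1, where Tnfrsf18 (0.95) and Tnfrsf1b joined. Tnfrsf1b turned its sign, to 0.58 without combination replicate 1, against -0.04 on all arrays and -0.65 without combination replicate 2. The count of lower members was 4, against 2 with an intensity trend, 2 with the filter at the median and 2 to 3 without 1 array, the 2 being without vehicle replicate 2. With the block it was again 4, but Ltb left and Tnfsf10 joined (-0.56, with an unadjusted limma p of 0.044). Leaving out 1 array also added Tnfsf9 (-0.79, without vehicle replicate 1), Tnfsf13b (0.67, without combination replicate 2) and Tnfrsf14 (-0.998, without vehicle replicate 2). The filter at the median left 27 members tested. Tnf, Tnfrsf9 and Traf1 kept an unadjusted limma p under 0.05 in all 13 alternatives, with differences from -1.19 to -1.03, from 0.95 to 1.02 and from 0.66 to 0.79, and limma adjusted p from 0.19 upward. Tnfrsf21 lost it without vehicle replicate 2, Tnfrsf10b in 5 alternatives and Ltb in 8, the replicate block among them (an unadjusted limma p of 0.060), with the sign of all 3 kept. The median difference of the members, 0.01, was -0.04 after a second quantile normalization and -0.04 with arrays centred, so its sign depends on the scaling. Fas differed by 0.07, by 0.25 as the mean of its features and by 0.42 on the other feature. Signal over background limits 15 of the 37 members on every array. It also limits Ltb, Tnfrsf13c, Tnfsf4, Tnfsf10, Tnfrsf9, Traf1 and Fas on at least 1 array each.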
